A study of Rattus norvegicus with 9 samples.

Results

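Expression of 3 genes of the endoplasmic reticulum stress response was followed across 9 RNA libraries from rat renal artery endothelium, the inner lining of the vessel that supplies the kidney, grown as cell cultures. The rule that lists them by Ensembl identifier uses no measured value, but the members were chosen with earlier results of these data known. They are Hspa5 (ENSRNOG00000018294), Ddit3 (ENSRNOG00000006789) and Atf3 (ENSRNOG00000003745). These are 3 of the 32883 genes in the count table, and all 3 were among the 12943 genes with enough counts to be tested. The table pairs no identifier with a symbol, so the symbols are those of the member list. The libraries fell into 3 groups of 3, labelled Normal, Model, and Calycosin and Tanshinone IIA, which is called Treated here. The series title ties the Model condition to angiotensin II, a peptide hormone that constricts vessels, and sets the question of whether calycosin, an isoflavone, combined with tanshinone IIA, a diterpene quinone, alters the cells' response to it. The labels give no dose and no exposure time, and they do not say whether Treated cells also received angiotensin II; the title implies it. Libraries of either compound alone were not analysed here. All groups were grown in the same serum-containing medium and used at low passage. The labels name the cells as endothelial, which was not checked against marker genes here, because the table holds no symbols.

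When unfolded protein builds up in the endoplasmic reticulum, the membrane sensors PERK, IRE1 and ATF6 start the unfolded protein response. Hspa5 encodes BiP (also called GRP78), the main chaperone of the compartment, which binds unfolded chains and holds the sensors inactive until it is drawn away from them. Atf3 encodes a bZIP transcription factor of the ATF/CREB family that is induced by many kinds of stress, and Ddit3 encodes CHOP, a bZIP factor of the C/EBP family; both lie downstream of PERK and ATF4, and CHOP is known for promoting cell death when stress persists. Hspa5 is thus an adaptive chaperone target of the response, while Ddit3 and Atf3 belong to its integrated stress arm, which other stresses can also engage. In endothelium the response is studied for its links to inflammation and to loss of barrier function.

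The upstream sequences of Hspa5 and Ddit3 are shown because the endoplasmic reticulum stress element, the site through which ATF6 acts on chaperone genes together with NF-Y, is part of how this response is wired. Both come from RefSeq on build GRCr8, cover the 250 bases before the annotated start on the plus strand, and read 5′ to 3′. Capitals mark the fixed end parts of the element or of its nearest match. The 2 windows are chr3:38452766-38453015 for Hspa5 and chr7:65001445-65001694 for Ddit3. Atf3 is named only.
Hspa5: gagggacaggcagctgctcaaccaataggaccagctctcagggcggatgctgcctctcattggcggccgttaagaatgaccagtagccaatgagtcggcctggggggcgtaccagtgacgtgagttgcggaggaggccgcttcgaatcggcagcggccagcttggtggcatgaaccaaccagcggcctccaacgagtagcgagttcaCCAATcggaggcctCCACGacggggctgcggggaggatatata
Ddit3: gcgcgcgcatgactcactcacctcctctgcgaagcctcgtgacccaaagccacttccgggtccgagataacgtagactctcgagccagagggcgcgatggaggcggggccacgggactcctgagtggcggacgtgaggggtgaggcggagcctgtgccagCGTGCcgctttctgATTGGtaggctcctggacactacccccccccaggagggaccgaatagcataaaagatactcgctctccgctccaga

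The full element, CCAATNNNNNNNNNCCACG on either strand, was present once in the Hspa5 window, as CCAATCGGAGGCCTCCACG from 43 to 25 bases before the start. Of 33469 promoter windows of that length, 22 (0.0657%) held it. The Ddit3 window held no full match. It held 1 with a single difference, CCAATCAGAAAGCGGCACG on the minus strand, from 90 to 72 bases before the start. The difference is C15G, counted from 1 at the 5′ end of the element, with the base of the element given first. A match with at most 1 difference among the 10 fixed bases was found in 1.27% of windows; this looser search was added after the sequences had been read. The CCAAT part alone occurred 4 times in the Hspa5 window and once in the Ddit3 window, counting the copies inside the elements, against 34.0% of windows with at least 1 copy. The CCACG part occurred once in each, against 27.2% of windows. Neither window held an exact match to the second form of the element (ATTGGNCCACG, in 0.0418% of windows). The same was true of the C/EBP-ATF composite element (TGATGNAAN, in 3.38%) and the cyclic AMP response element (TGACGTCA, in 1.59%). Matches with 1 difference were not searched for in these other motifs. These matches describe letters in a window and not bound sites, and sequence outside the 250 bases was not searched.

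The gene counts of a library summed to between 7.98 and 18.3 in units of 1e6 counts, and Treated libraries 2 and 3 were the shallowest, at 7.98 and 8.15. Levels are given as CPM, that is, counts scaled to a library total of 1e6 after TMM correction. A detection floor of 3 counts equals 0.164 to 0.376 CPM, so all 3 genes were far above it in every library. Levels of different genes are compared only as FPKM, the deposited value that is also divided by gene length.

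Hspa5 stood far above the other two in every library. Its mean FPKM was 722.5, which ranked 64th among the 12943 tested genes, whose median was 12.2. The chaperone message made up 0.159% to 0.207% of all gene counts, depending on the library. Ddit3 had a mean FPKM of 11.9, at the 49.4th percentile of tested genes, and Atf3 had one of 3.24, at the 19.8th percentile. Per length, Hspa5 was thus 60.5 times as abundant as Ddit3 and 223 times as abundant as Atf3, and Ddit3 was 3.69 times as abundant as Atf3. The order Hspa5, Ddit3, Atf3 was the same in all 9 libraries.

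Ddit3, the CHOP gene, was the member that differed most firmly between the groups. Its levels were 14.9, 13.8 and 14.8 CPM in Normal libraries 1, 2 and 3, from 200, 187 and 181 counts. In Model libraries 1, 2 and 3 they were 17.3, 17.0 and 18.0 CPM, from 229, 270 and 307 counts. In Treated libraries 1, 2 and 3 they were 25.4, 23.7 and 25.0 CPM, from 463, 191 and 205 counts. No library of one group reached the range of another, and the groups stood in the order Normal, Model, Treated. The gap between the highest Model and the lowest Treated library was 5.70 CPM, wider than the gap of 2.18 CPM between Normal and Model.

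Ddit3 rose 1.42-fold in Treated over Model, from 17.5 ± 0.510 to 24.7 ± 0.859 CPM (SD, n = 3; log2 fold change 0.50 ± 0.09 SE; edgeR quasi-likelihood test with Benjamini-Hochberg adjustment over all tested genes, adjusted p = 0.0150). The 95% interval of the fold ran from 1.24 to 1.61. Over all tested genes 0.572% were called higher in Treated than in Model at an adjusted p below 0.05, and Ddit3 was the only one of the 3 members among them. Its p ranked 43rd of 12943. The call needed all 6 libraries except Model library 2: the edgeR adjusted p was 0.0726 and 0.0613 without Model library 1 or 3, and 0.0672, 0.0683 and 0.0580 without Treated library 1, 2 or 3, while the log2 fold change stayed between 0.48 and 0.53. In bulk RNA of a culture, more message in every cell and a larger share of cells with high message cannot be told apart, here or for the other members. The Ddit3 call was also lost when every library was thinned to the smallest total in a single random draw (log2 fold change 0.47, edgeR adjusted p = 0.154).

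Against Normal, at 14.5 ± 0.582 CPM (SD, n = 3), Ddit3 rose 1.71-fold in Treated (95% interval 1.49 to 1.95; log2 fold change 0.77 ± 0.09 SE, edgeR adjusted p = 0.000574). That p ranked 12th of 12943, and 0.742% of tested genes had a log2 fold change at least as high. The rise passed the threshold under each of the 17 alternative settings tried, which included leaving out each library, with edgeR or DESeq2 adjusted p from 1.87e-07 to 0.0196. Thinning gave the smallest log2 fold change among them, 0.62. Model exceeded Normal by 1.21-fold (95% interval 1.05 to 1.38, log2 fold change 0.27 ± 0.09 SE) and was not called (edgeR adjusted p = 0.999, unadjusted p = 0.00971).

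**Figure D1:**
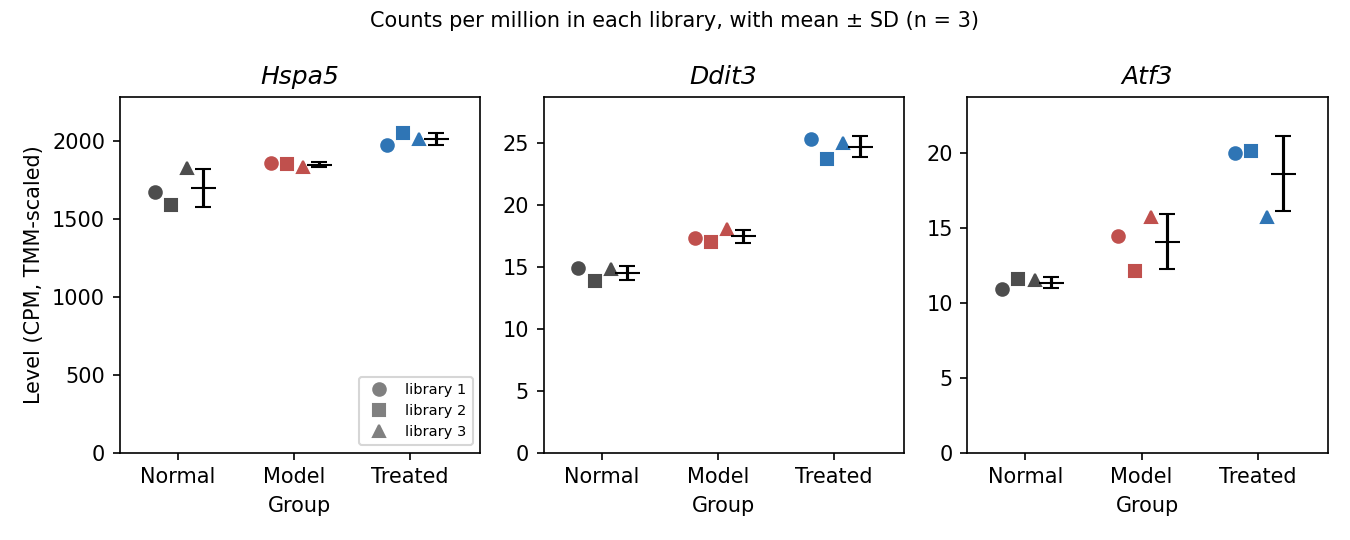
Level of each gene (y axis, CPM from 0) in the Normal, Model and Treated groups (x axis), with 1 coloured symbol per library and the black bar as mean ± SD of 3 libraries. Ddit3 forms 3 separate bands at 13.8 to 14.9, 17.0 to 18.0 and 23.7 to 25.4 CPM, while the Model and Treated ranges of Atf3 touch at 15.7 CPM.

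Atf3 followed the same order with more scatter. It stood at 10.9, 11.6 and 11.5 CPM in Normal libraries 1, 2 and 3, from 147, 157 and 141 counts. Model libraries 1, 2 and 3 held 14.4, 12.1 and 15.7 CPM, from 191, 192 and 268 counts. Treated libraries 1, 2 and 3 held 20.0, 20.1 and 15.7 CPM, from 365, 162 and 129 counts. All Model and all Treated libraries lay above all Normal libraries, but Treated library 3 fell just below Model library 3, so those groups overlapped. Model library 2, at 12.1 CPM, was close to the highest Normal library.

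Atf3 rose 1.65-fold in Treated over Normal, from 11.4 ± 0.368 to 18.6 ± 2.50 CPM (SD, n = 3; 95% interval of the fold 1.37 to 1.99; log2 fold change 0.72 ± 0.13 SE, edgeR adjusted p = 0.00685). Its p ranked 95th of 12943. The call was lost without Normal library 1 (edgeR adjusted p = 0.0584) and without Treated library 2 (edgeR adjusted p = 0.0552), at log2 fold changes of 0.70 and 0.68. Treated exceeded Model, at 14.1 ± 1.83 CPM, by 1.33-fold (95% interval 1.11 to 1.59, log2 fold change 0.41 ± 0.12 SE), which was not called (edgeR adjusted p = 0.172). Model exceeded Normal by 1.24-fold (95% interval 1.03 to 1.50, log2 fold change 0.31 ± 0.13 SE), which was not called either (edgeR adjusted p = 0.999, unadjusted p = 0.0260). Atf3 varied between libraries by 13.0% in Model and 13.4% in Treated (coefficient of variation), where counting error was 6.87% and 7.45%.

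Hspa5, the BiP gene, showed the smallest differences in relative terms. Normal libraries 1, 2 and 3 held 1673, 1590 and 1828 CPM, from 22500, 21515 and 22380 counts. Model libraries 1, 2 and 3 held 1861, 1851 and 1830 CPM, from 24624, 29320 and 31162 counts. Treated libraries 1, 2 and 3 held 1972, 2054 and 2014 CPM, from 36007, 16533 and 16507 counts. The groups did not overlap, but Normal library 3 lay only 1.74 CPM below the lowest Model library. The gap between Model and Treated was 111 CPM.

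Hspa5 rose 1.19-fold in Treated over Normal, from 1697 ± 121 to 2013 ± 40.8 CPM (SD, n = 3; 95% interval of the fold 1.09 to 1.29; log2 fold change 0.25 ± 0.06 SE, edgeR adjusted p = 0.0284). The call rested on many single libraries. Without Normal library 1 or 2 the edgeR adjusted p was 0.126 and 0.0985, and without Treated library 1, 2 or 3 it was 0.0585, 0.144 and 0.0847, with log2 fold changes from 0.21 to 0.26. Model, at 1847 ± 15.8 CPM, exceeded Normal by 1.09-fold (95% interval 1.00 to 1.18) and was in turn exceeded by Treated by 1.09-fold (95% interval 1.00 to 1.18). Neither difference was called (edgeR adjusted p = 0.999 and 0.372; unadjusted p = 0.0440 and 0.0417). Both intervals reach from almost no difference to 1.18-fold.

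Set side by side, all 3 members were called higher in Treated against Normal, 1 of 3 in Treated against Model, and 0 of 3 in Model against Normal. The share of all tested genes called higher was 1.39% in the first and 0.572% in the second. In Model against Normal it was 0%: edgeR and DESeq2 each called 0 genes, with 550 and 409 at an unadjusted p below 0.05. The 550 of edgeR were fewer than the share of 0.05 of the 12943 tested genes expected if no gene differed. The comparisons share libraries, so they are not independent of each other. All 9 fold changes of the members were above 1, while the median log2 fold change of all tested genes was -0.00243, -0.000964 and 0.000702 in Model against Normal, Treated against Model and Treated against Normal.

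A test of any difference among the 3 groups called Ddit3 and Atf3 (edgeR adjusted p = 0.00172 and 0.0216) but not Hspa5 (edgeR adjusted p = 0.0834); it called 1.61% of tested genes. The Atf3 call was lost without Normal library 1, Treated library 1 or Treated library 2 (edgeR adjusted p = 0.109, 0.122 and 0.160). Hspa5 was called in DESeq2 (adjusted p = 0.00688) and in edgeR without Normal library 3 (adjusted p = 0.0121), the library in which it was highest among the Normal ones.

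Separation between libraries was more common than calls. Every Treated library lay above every Normal library for all 3 members, which held for 11.9% of tested genes. Every Model library lay above every Normal library for all 3 as well, against 5.49% of tested genes. Every Treated library lay above every Model library for Hspa5 and Ddit3 but not Atf3, against 7.90%. The full order with no overlap, Normal below Model below Treated, held for Hspa5 and Ddit3 and for 0.688% of tested genes.

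**Figure D2:**
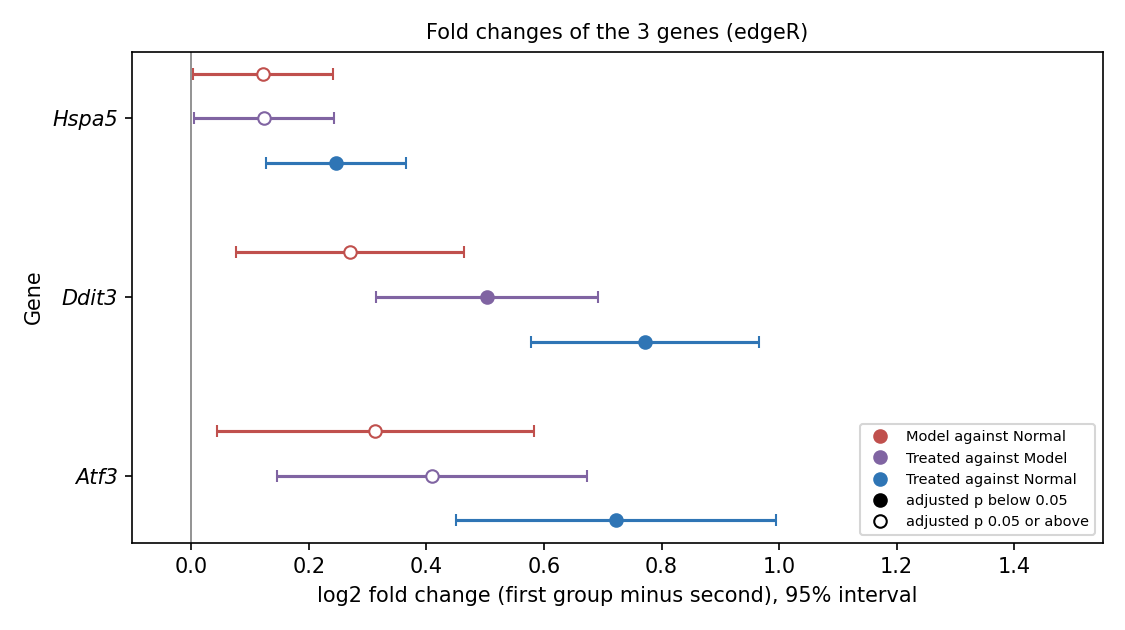
Log2 fold change of each gene (x axis, edgeR, first group minus second) with its unadjusted 95% interval as a bar, for the 3 comparisons (colours). Filled circles passed an adjusted p below 0.05: all 3 genes in Treated against Normal and Ddit3 in Treated against Model.

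The step from Normal to Model and the step from Model to Treated went the same way for each member, and Model lay between the other groups. Of the whole difference between Normal and Treated in mean log2 CPM, the Normal to Model step made up 50.2% for Hspa5, 35.0% for Ddit3 and 43.2% for Atf3. For each member the Treated mean lay farther from the Normal mean than the Model mean did. The Normal to Model part of each split passed no adjusted test, and the Model to Treated part passed only for Ddit3. These shares are therefore a description of group means.

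The ratio of one member to another within a library is not affected by library scaling, and it was examined after the levels had been seen. The FPKM of Ddit3 was 1.39% ± 0.0677 of that of Hspa5 in Normal, 1.53% ± 0.0564 in Model and 1.99% ± 0.108 in Treated (SD, n = 3). The 3 Treated ratios, from 1.87% to 2.09%, lay above the highest Model ratio of 1.60%. The Normal ratios, up to 1.44%, lay below the lowest Model ratio of 1.49%. The ratio of Ddit3 to Hspa5 in Treated was 1.43 times that in Normal (two-sided exact permutation p = 0.10, the smallest that 3 libraries against 3 allow, so no ratio can pass 0.05 in this design).

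Atf3 was 0.379% ± 0.0295 of Hspa5 in Normal, 0.431% ± 0.0582 in Model and 0.522% ± 0.0709 in Treated (SD, n = 3), which is 1.37 times as high in Treated as in Normal (two-sided exact permutation p = 0.10). Model and Treated ratios overlapped here, and so did Normal and Model ratios. Atf3 relative to Ddit3 was 27.3% ± 1.83, 28.1% ± 2.94 and 26.3% ± 3.94 in the same order (SD, n = 3), with groups that overlapped throughout and a Treated to Normal quotient of 0.957 (two-sided exact permutation p = 0.90). The ratio of the 2 bZIP factors to each other thus differed between groups by less than its spread between replicates, whereas each was higher relative to the chaperone in all Treated libraries than in all Normal ones. In all, 9 ratio comparisons were made.

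**Figure D3:**
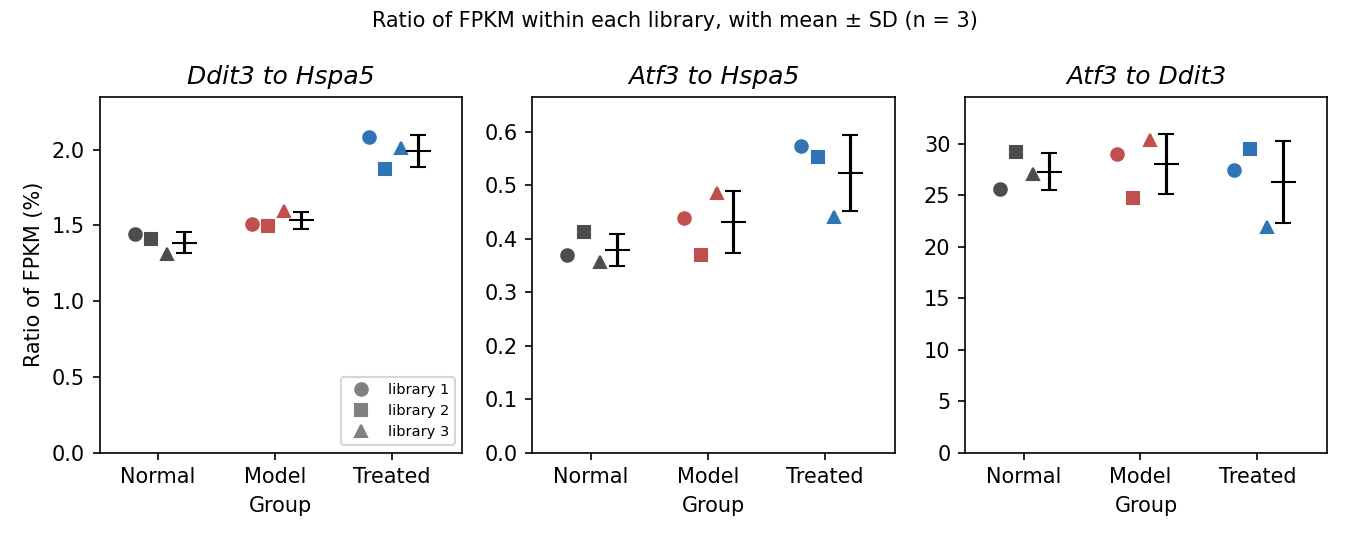
FPKM of one gene as a percentage of another within the same library (y axis, from 0), by group (x axis), with 1 coloured symbol per library and the black bar as mean ± SD of 3 libraries. Ddit3 relative to Hspa5 is 1.31% to 1.44% in Normal, 1.49% to 1.60% in Model and 1.87% to 2.09% in Treated, while Atf3 relative to Ddit3 overlaps between all groups.

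The spread between replicates had a different character in each member. For Hspa5, counting error was at most 0.704% of the level in any group, but the libraries of a group varied by 7.13% in Normal, 0.855% in Model and 2.03% in Treated (coefficient of variation). The scatter of its counts around the group means, as chi-square per degree of freedom, was 40.6, higher than in 97.9% of tested genes, and it came mostly from the Normal group. This measure grows with the number of counts, and Hspa5 ranked 28th of 12943 by CPM. The edgeR estimate of its spread beyond counting error was 7.73%, below the trend of 9.84% for genes of its level. For Ddit3 counting error was 6.14% to 7.27%, while the libraries varied by only 2.92% to 4.02%. Its chi-square per degree of freedom was 0.289, and 1.07% of tested genes had a lower one. The SD of Ddit3 was thus below what counting error alone gives on average, and the standard error of the fit, which also draws on the spread of other genes, is its more cautious measure of error. Atf3 was in between, at 2.36 against a median of 2.48 over tested genes. The libraries that stood apart also differed between members: Normal library 3 was highest in its group for Hspa5 only, and Treated library 3 was lowest in its group for Atf3 only.

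**Figure D4:**
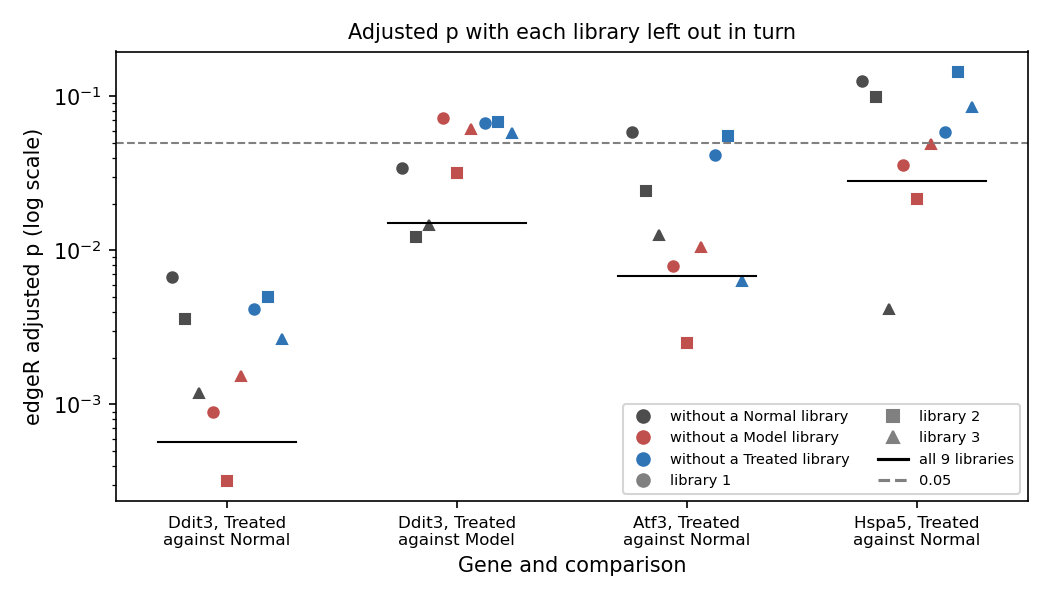
Adjusted p of edgeR (y axis, log scale) for the 4 calls among the members (x axis) when each of the 9 libraries was left out in turn (coloured by group, symbol by library number), with the black line for all 9 libraries and the dashed line at 0.05. All 9 symbols lie below the dashed line for Ddit3 in Treated against Normal, and 5 of 9 lie above it both for Ddit3 in Treated against Model and for Hspa5.

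For each member the tested gene whose level varied most alike across the 9 libraries was found by Pearson's r of log2 CPM. The search ran among 12872 genes with counts in every library, with the other members set aside. For Ddit3 it was ENSRNOG00000046502 (r = 0.988, Spearman's rho = 0.950), at 114 ± 6.19, 128 ± 3.63 and 164 ± 4.08 CPM in Normal, Model and Treated (SD, n = 3). For Hspa5 it was ENSRNOG00000019525 (r = 0.988, rho = 0.900), at 300.5 ± 43.6, 346 ± 6.50 and 419 ± 11.0 CPM, and for Atf3 it was ENSRNOG00000019023 (r = 0.989, rho = 0.950), at 158 ± 2.49, 169 ± 5.31 and 190 ± 7.10 CPM (SD, n = 3). Picked as the best of so many genes over 9 libraries, such values are a description of likeness, and no symbol is paired with these identifiers in the files. Each r also takes in the differences between groups, which do not overlap for Hspa5 and Ddit3.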

How the data were processed

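Strand-specific total RNA libraries were sequenced, per the labels' protocols. The submitters' processing notes name CASAVA 1.8 and build mRatBN7.2. Aligner, counting program and annotation are, like the strand setting of the counting, not given in the sources used here. The authors deposited whole-number counts per Ensembl gene, and FPKM values stand in the same table, per the file headers. The headers do not say how the FPKM values were computed. Count divided by FPKM and by the library's summed gene counts, in FPKM units, gave each member a single length in all libraries. It was 2562 bases for Hspa5, 1580 for Ddit3 and 4536 for Atf3.

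All 9 libraries entered 1 fit in edgeR 4.0.16 (R 4.3.3) with group as the only term, TMM scaling, a filterByExpr filter (minimum count 10) and robust quasi-likelihood tests. Calls were made at an adjusted p below 0.05 (Benjamini-Hochberg, 12943 genes). The SE is the log2 fold change divided by the square root of F. The fit was tested on simulated data. DESeq2 1.42.0 and other settings were alternatives. The members, lists, tests and naming rule (the 3 members, and for each the most similar gene) were chosen with earlier results of these data known. A list of other pathway genes and one of cell type markers could not be scored, since the files pair identifiers with no symbols; the lncRNA table was not used here. Whether replicate libraries are separate cultures is not said in the labels, and the p-values therefore reflect only how these libraries vary, which may be technical. Replicate pairs differed by more than counting error (chi-square per degree of freedom 4.77 to 15.1). Promoter windows came from a RefSeq table matched by symbol, which held 2 of the 3 members. Correlations between members over libraries had been planned and are not given, because the groups of Hspa5 and Ddit3 do not overlap.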

Additional observations from a re-analysis of the deposited data

How the results depend on the processing

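The 9 differences between 2 groups kept their direction under all 153 alternatives tried and their side of the threshold under 139. The other 14 lost a call and none gained one. Only differences called in the main fit could lose a call. Out of 17 alternatives each, Ddit3 in Treated against Model lost the call in 6 and Hspa5 in Treated against Normal in 6. In Treated against Normal, Atf3 lost it in 2 and Ddit3 in 0. Leaving out 1 library gave log2 fold changes of 0.48 to 0.53 for Ddit3 in Treated against Model, 0.21 to 0.30 for Hspa5 and 0.66 to 0.82 for Atf3 in Treated against Normal, and, for any difference, adjusted p of 0.0121 to 0.353 for Hspa5 and 0.00784 to 0.160 for Atf3. Thinned to the smallest total in a single random draw, Ddit3 in Treated against Model had a log2 fold change of 0.469 and was not called. In DESeq2 the adjusted p of Hspa5 for any difference was 0.00688. Genes called over the whole table numbered 0 to 16 in Model against Normal, 8 to 215 in Treated against Model, 94 to 671 in Treated against Normal and 52 to 361 for any difference with 1 library left out. They were 233, 549 and 422 in DESeq2 for the last 3, and 75 in Treated against Model after thinning. The cause of these changes was not tested.

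For libraries of the same number, r of deviations from group means ran from -0.08 to 0.25, above 0.1 in 2 of 9 pairs. For libraries of other numbers it ran from -0.23 to 0.16, above 0.1 in 5 of 18 pairs. Such values cannot settle whether the number marks a pairing, because deviations from a mean of 3 libraries are tied to each other. With a replicate block, Hspa5 in Treated against Normal had a log2 fold change of 0.248 (adjusted p = 0.0749) and Atf3 an adjusted p of 0.0522 for any difference, neither of them called, while the other member calls were unaltered; the block left 1 gene called in Model against Normal and 47 in Treated against Model. Other scales for the correlations between members were not run, since no such correlation is given. Ddit3 and Atf3 rest on 129 to 463 counts a library, so depth limits their precision more than that of Hspa5. The spread of Atf3 exceeded counting error in Model and Treated. That of Hspa5 did so in all 3 groups, but by little in Model (coefficient of variation 0.855% against 0.597%).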
